A study of Homo sapiens with 12 samples.

Results

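The nuclear genes for the subunits of the mitochondrial respiratory chain and ATP synthase were followed in HCT116 cells with and without PPM1G. Members were all protein-coding rows of the deposited tables whose symbol begins with NDUFA, NDUFB, NDUFC, NDUFS, NDUFV, UQCR, COX4 to COX8 or ATP5, or equals SDHA, SDHB, SDHC or SDHD. This gave 97 of 56104 gene rows (20020 of them protein-coding). By the complex they serve, 37 encode complex I subunits, 7 are complex I assembly factors (the NDUFAF genes, which the symbol rule takes in), 4 encode complex II, 9 complex III, 19 complex IV and 17 ATP synthase. The remaining 4 rows, ATP5J2-PTCD1, NDUFC2-KCTD14, ATP5S and ATP5SL, are readthrough genes or genes named for a likeness to ATP synthase subunits, and were kept apart. The rule uses symbols and row types alone, but it was chosen with earlier results of these data known.

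HCT116 is a human colorectal carcinoma cell line, and PPM1G encodes a metal-dependent protein phosphatase found in the nucleus. Control cells (Ctrl) and cells labelled PPM1G KO, both grown in DMEM and under 15 passages old, were each profiled by RNA-seq of total RNA and by 4sU-seq. In 4sU-seq, cells take up 4-thiouridine (500 µM, 10 min), and the RNA made in that time is biotinylated and pulled down. Each of the 4 groups held 3 libraries, and neither the edited site nor whether the KO line is 1 clone is given in the sources used here. The labels call the 4sU-seq cultures biological replicates but do not describe those of RNA-seq, so p-values measure the spread between libraries, which may be partly technical.

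Complexes I and II feed electrons from NADH and succinate into ubiquinone, complex III passes them to cytochrome c, and complex IV hands them to oxygen. Complexes I, III and IV pump protons, and ATP synthase lets them back through a rotating ring of c subunits to drive its catalytic head. Complexes I, III and IV and ATP synthase combine subunits encoded in the nucleus with a few encoded in mitochondrial DNA, while complex II is wholly nuclear. The subunits that carry the redox centres or the catalytic sites tend to be large proteins, and most accessory subunits around them are small. NRF1, the ETS factor GABPA and YY1 are known activators of nuclear respiratory genes. Colorectal carcinoma lines combine strong glycolysis with a working respiratory chain.

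The promoters of 4 members are printed here as examples of RNA-seq calls in each direction: SDHA and NDUFB10, which were lower in KO, and COX5B and NDUFA1, which were higher. Each run is the 250 bases before the RefSeq transcript start (GRCh38.p14), read 5′ to 3′ on the strand of the gene, which is the plus strand for all of them. Capitals mark matches, on either strand, to 4 short motifs: GCATGCG (core of the NRF1 site), GCGCNNGCGC (NRF1 palindrome with an open centre), CCGGAAG (ETS/GABPA core) and AAGATGG (YY1 core). The palindrome was added after the SDHA promoter had been seen, and it can overlap the first motif.
SDHA, chr5:218070-218319: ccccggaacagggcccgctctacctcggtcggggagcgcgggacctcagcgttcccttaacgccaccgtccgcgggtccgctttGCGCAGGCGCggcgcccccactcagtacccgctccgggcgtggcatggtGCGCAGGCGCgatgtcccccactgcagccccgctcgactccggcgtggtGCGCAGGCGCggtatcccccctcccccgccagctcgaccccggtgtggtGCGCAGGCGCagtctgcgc
NDUFB10, chr16:1959288-1959537: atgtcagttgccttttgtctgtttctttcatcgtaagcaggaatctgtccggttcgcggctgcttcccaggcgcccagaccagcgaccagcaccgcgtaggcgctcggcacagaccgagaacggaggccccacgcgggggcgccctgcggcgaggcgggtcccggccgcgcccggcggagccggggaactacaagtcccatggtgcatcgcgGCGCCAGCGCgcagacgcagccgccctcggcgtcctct
COX5B, chr2:97645812-97646061: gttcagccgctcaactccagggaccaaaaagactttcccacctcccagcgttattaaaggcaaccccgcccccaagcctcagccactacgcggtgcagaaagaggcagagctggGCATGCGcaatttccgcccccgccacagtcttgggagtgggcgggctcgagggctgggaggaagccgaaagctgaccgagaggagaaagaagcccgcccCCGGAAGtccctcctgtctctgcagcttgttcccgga
NDUFA1, chrX:119871582-119871831: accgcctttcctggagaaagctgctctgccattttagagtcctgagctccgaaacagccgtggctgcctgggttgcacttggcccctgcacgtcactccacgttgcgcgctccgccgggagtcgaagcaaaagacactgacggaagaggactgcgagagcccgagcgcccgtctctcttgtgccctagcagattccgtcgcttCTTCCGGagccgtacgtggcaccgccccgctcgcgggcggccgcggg

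The SDHA run holds 4 copies of the palindrome, NDUFB10 holds 1, COX5B holds 1 NRF1 core and 1 ETS core, and NDUFA1 holds 1 ETS core. Over the window from 250 bases before to 50 after the start, 76 members had a RefSeq promoter. The NRF1 core was in 13 of them (17.1%), against 3.91% of all 35116 RefSeq promoters of that length. Corresponding shares were 23.7% against 8.32% for the palindrome, 26.3% against 10.3% for the ETS core and 22.4% against 5.84% for the YY1 core. Between members that rose and fell in RNA-seq, 15 of each with a promoter, the palindrome was in 1 and 6 (SDHA, seen before this motif was added, is among the 6), the ETS core in 7 and 2, the NRF1 core in 2 and 3 and the YY1 core in 3 and 4. These are counts of letters, not of bound sites. The 35116 promoters outnumber the 20020 protein-coding rows and were not matched to the members by gene type, expression or base content.

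The gene counts of a library summed to 30962756 to 42479828 for RNA-seq and to 79403238 to 101884166 for 4sU-seq, and 3 counts stand for 0.0294 to 0.0969 CPM (counts relative to the library total, scaled between libraries by TMM, edgeR's trimmed mean of M values). PPM1G itself read 293 to 331 CPM in Ctrl and 95.0 to 98.0 in KO in RNA-seq, and 235 to 271 and 98.9 to 144 in 4sU-seq, so KO libraries had a lower level in both assays. Of 8 colorectal epithelial markers, 6 reached 1 CPM in RNA-seq. CDX1 was at 0 in every RNA-seq library and VIL1 stayed under 0.283 CPM. The 10 markers of other lineages summed to 4.54 to 6.72 CPM in RNA-seq Ctrl and 10.4 to 12.02 in KO, and to 11.4 to 12.7 and 23.1 to 27.5 in 4sU-seq. COL1A1 made up most of these CPM in RNA-seq (4.15 to 6.16 in Ctrl and 9.45 to 10.8 in KO). In 4sU-seq PECAM1 (4.04 to 4.65 and 8.66 to 9.49) came beside it (4.70 to 5.68 and 9.18 to 13.04). COL1A2, CD3E and MYH7 stayed at or below 0.0239 CPM in all 12 libraries; the part of these markers in the results was not tested. In 4sU-seq, KO replicate 2 stood apart from the other KO libraries, and 4sU-seq counts of the members are given with and without it. Genes named from the further lists below are given in 4sU-seq with all libraries only. In RNA-seq, KO replicates 1 and 2 differed far less than other replicate pairs (1.88 times the counting noise, against 12.7 to 22.9), so counts are also given with both added into 1 library.

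In RNA-seq, genes for the core of the complexes were mostly lower in KO, and genes for the other subunits had more higher than lower calls. Of 17 genes for core, catalytic or redox-bearing subunits of complexes I, II and III and ATP synthase, 11 fell and none rose (3 fell and 2 rose with library size alone, 3 and 1 with ERCC scaling, and 8 and 1 with the trend on coding length removed, as described below; 1 was higher at an unadjusted p below 0.05 in edgeR), with a median change of -0.17; the roles were assigned with the values known, and the complex II anchors, of which SDHC rose, were placed with the other subunits. Of 64 other tested subunits 17 rose and 8 fell, with a median of 0.12. Of 13653 protein-coding genes tested, 3316 rose and 4835 fell. The share of other subunits that rose was thus near that of protein-coding genes, and the share that fell was smaller. The lowest fold of a called member was 0.748, in SDHA, and folds of those that rose ran from 1.14 in ATP5L to 1.58 in COX6B2. In all, of 90 tested members, 18 rose, 19 fell and 53 did not pass, that is 41.1% called against 48.4% of all 20415 genes tested (21.5% higher and 26.8% lower) and 59.7% of protein-coding genes. Groups did not overlap in 43 of the 90, or in 56.1% of all genes. A call means a Benjamini-Hochberg adjusted p below 0.05 in edgeR's quasi-likelihood test over all genes, and changes are log2 of KO over Ctrl ± the standard error, with 3 libraries a group. The median change was 0.05 for the members, 0.00 for all genes and -0.05 for protein-coding genes. With KO replicates 1 and 2 added, 10 rose and 11 fell (18% and 22.8% of all genes), all of them among the calls above; of the core genes 5 fell and of the other subunits 9 rose and 6 fell. In bulk RNA, fewer expressing cells and less RNA per cell cannot be told apart.

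Most of the lower calls were lost under other scalings. Scaling by library size alone moved the median of all genes to 0.19 and gave 52 higher and 3 lower members (36.4% and 13.8% of all genes, 50.2% in all), and 5 of the 19 lower members, ATP5A1, COX5A, NDUFS1 and UQCRC1 among them, then had values above 0, none of them called higher. Scaling to the ERCC spike-in RNA moved the median of all genes to 0.08 and gave 22 higher and 3 lower (21.4% and 13.4%, 34.8% in all), and none of the 19 had a value above 0. The medians of the core genes and the other subunits were then 0.02 and 0.31 with library size alone and -0.08 and 0.21 with ERCC scaling. SDHA, ATP5B and ATP5D remained lower under both, and all 18 higher calls were kept under both. The members' share of raw gene counts was 0.731 to 0.780% in Ctrl and 0.840 to 0.843% in KO, without overlap, whereas their summed TMM-scaled CPM overlapped, at 7656 to 8616 and 7785 to 8116. Changes below are therefore relative to the bulk of genes.

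**Figure D1:**
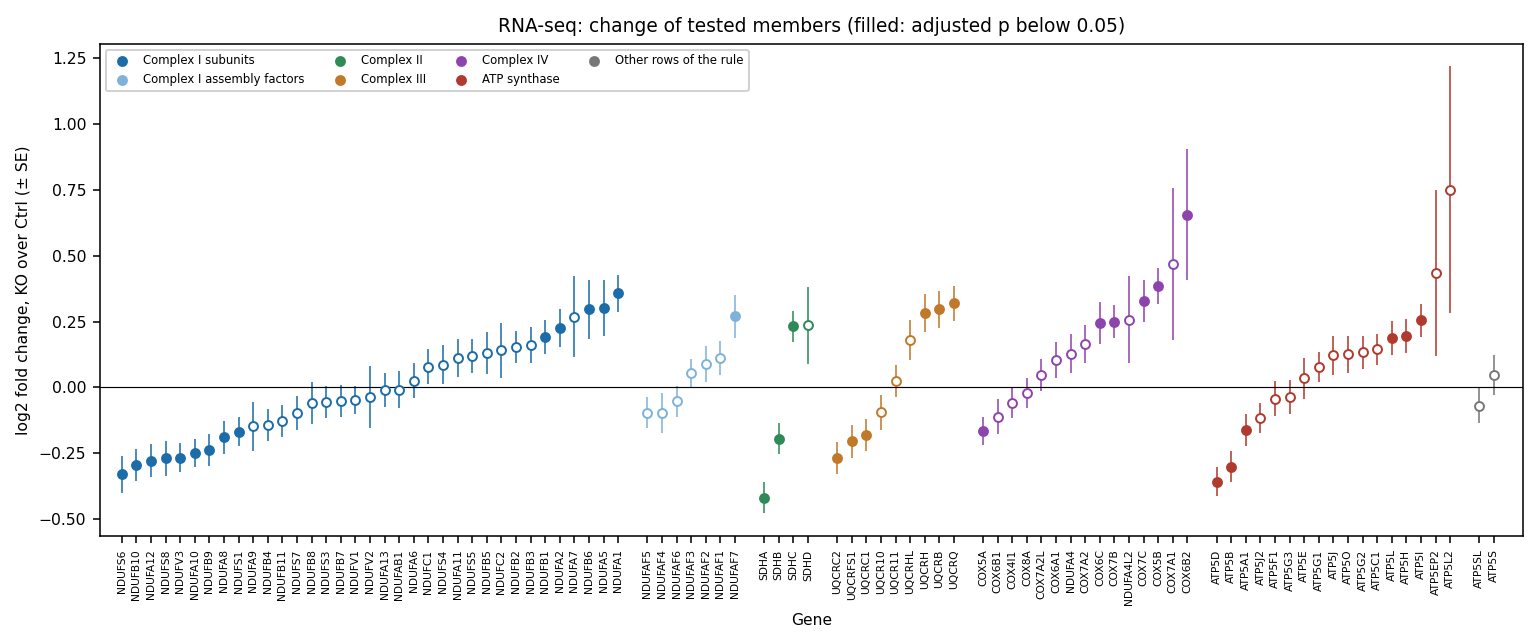
RNA-seq log2 fold change of KO over Ctrl (± SE, 3 libraries a group) for tested members, grouped by complex and ordered by value; filled points passed an adjusted p of 0.05. SDHA sits lowest at -0.42, and complexes III and IV and ATP synthase each hold called members on both sides of 0.

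Complex II, which oxidises succinate in the citric acid cycle, showed the split most simply. SDHA (chr5:218241-256700, plus strand, hg38), the flavoprotein that binds succinate, read 140.9, 124 and 135 CPM in the Ctrl libraries and 101, 97.4 and 101 in KO. All KO libraries lay below all Ctrl libraries, and the change was -0.42 ± 0.06 (edgeR adjusted p = 7.1e-05). It passed under all 17 alternative settings, between -0.44 and -0.23. SDHB, the iron-sulfur subunit, read 130.4, 123 and 137 in Ctrl and 112, 110.3 and 119 in KO, again without overlap (-0.19 ± 0.06, edgeR adjusted p = 0.0155; 0.0725 with KO replicates 1 and 2 added). SDHC, a membrane anchor that helps bind haem and ubiquinone, went the other way, from 73.2, 81.7 and 77.4 in Ctrl to 90.0, 91.3 and 91.6 in KO (0.23 ± 0.06, edgeR adjusted p = 0.00481). The other anchor, SDHD, spread from 59.1 to 104 CPM within Ctrl, overlapped KO (95.7 to 108) and did not pass (0.24 ± 0.15, edgeR adjusted p = 0.207). SDHA, SDHC and SDHD have 3 or 4 pseudogene rows each in the tables, which could share reads with them.

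In complex III, UQCRC1 and UQCRC2 form the core on the matrix side, UQCRFS1 is the Rieske iron-sulfur protein, and the remaining members are small subunits around cytochrome b. All 3 of the former fell. UQCRC2 went from 172, 174 and 188 CPM in Ctrl to 142, 145 and 156 in KO (-0.27 ± 0.06, edgeR adjusted p = 0.00231), with every KO library below every Ctrl library. UQCRFS1 (-0.21 ± 0.06) and UQCRC1 (-0.18 ± 0.06) changed less, and neither passed with KO replicates 1 and 2 added. Of 6 small subunits, 3 rose. UQCRQ, which lies beside cytochrome b, went from 79.8, 88.8 and 95.5 to 109, 112 and 109 (0.32 ± 0.07, edgeR adjusted p = 0.00137). UQCRB, a ubiquinone-binding protein, changed by 0.30 ± 0.07 and the hinge protein UQCRH by 0.28 ± 0.07. In these 3 genes no Ctrl library reached the lowest KO library. UQCRHL, a near copy of UQCRH whose reads may be shared with it, had 0.18 ± 0.07, and UQCR10 and UQCR11 had -0.09 ± 0.07 and 0.02 ± 0.06; these 3 did not pass.

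In ATP synthase the lower calls lay in the catalytic head and stalk and the higher calls elsewhere. Of the 5 genes for the catalytic head and central stalk, 3 fell. ATP5B, the beta subunit that holds the catalytic sites and the most abundant member, read 698, 736 and 780 CPM in Ctrl and 586, 598 and 613 in KO. The groups were well apart (-0.30 ± 0.06, edgeR adjusted p = 0.000834). ATP5D, the delta subunit of the stalk, read 167, 156.0 and 166 in Ctrl and 123, 128 and 130.0 in KO (-0.36 ± 0.06, edgeR adjusted p = 0.000128). ATP5A1, the alpha subunit, changed by -0.16 ± 0.06, but its groups overlapped (434 to 489 CPM in Ctrl and 401 to 435 in KO) and it did not pass with KO replicates 1 and 2 added. The gamma subunit ATP5C1, at 0.15 ± 0.06, and the epsilon subunit ATP5E, at 0.03 ± 0.08, did not pass. Among 7 genes for the peripheral stalk and the membrane part, ATP5I (0.26 ± 0.06), ATP5H (0.19 ± 0.06) and ATP5L (0.19 ± 0.06) rose, and ATP5I alone kept its call with the replicates added (edgeR adjusted p = 0.0704 for ATP5H and 0.0782 for ATP5L). ATP5I, subunit e, which helps the enzyme form dimers, read 39.5, 40.2 and 45.7 in Ctrl and 50.3, 48.5 and 50.8 in KO. For the c-ring genes ATP5G1, ATP5G2 and ATP5G3, the changes lay between -0.04 and 0.13 and none passed. ATP5L2 had the highest log2 change of any member, 0.75 ± 0.47, from 1 to 14 counts a library in Ctrl and 12 to 14 in KO, and did not pass (edgeR adjusted p = 0.208).

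Complex IV leaned upward: of 15 tested members 5 rose and 1 fell, with a median of 0.16. Its catalytic core is encoded in mitochondrial DNA, so the nuclear members all surround that core. COX5B, a zinc-binding subunit on the matrix side, read 78.9, 78.2 and 92.3 CPM in Ctrl and 109, 107 and 109 in KO, with a wide gap (0.39 ± 0.07, edgeR adjusted p = 0.000363). COX7C went from 117, 141 and 153 to 168, 171 and 177 (0.33 ± 0.08), COX7B changed by 0.25 ± 0.06 and COX6C by 0.24 ± 0.08. COX6C did not pass with KO replicates 1 and 2 added (edgeR adjusted p = 0.0534). The member that fell was COX5A, a subunit on the matrix side, from 111 to 118 CPM in Ctrl to 101 to 104 in KO (-0.17 ± 0.05, edgeR adjusted p = 0.0217; 0.0806 with the replicates added). COX4I1, the largest nuclear subunit of the complex, read 236 to 260.3 in Ctrl and 228 to 244 in KO, groups that overlapped, and did not pass (-0.06 ± 0.06).

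Where complex IV has tissue isoforms, the widely expressed form prevailed. COX6A2 and COX8C, the form of heart and muscle and a form of testis, had no count in any of the 12 libraries, and COX7B2 had none in RNA-seq. The gene ID of COX8C is among the 4 member IDs without an entry in GENCODE 29, so its lack of counts does not show that this form is absent. COX4I2, the lung and hypoxia form, had 0 to 2 counts a library in RNA-seq, and COX7A1, of heart and muscle, 0.487 to 1.46 CPM, against 85.8 to 109 for COX7A2. COX6B2, a testis form, was low but rose, from 0.419, 0.478 and 0.389 CPM in Ctrl to 0.792, 0.565 and 0.684 in KO, that is from 12 to 17 counts to 22 to 29. Its groups did not overlap (0.66 ± 0.25, edgeR adjusted p = 0.0425), but it passed under 6 of 16 alternative settings. COX6B1, its widely expressed partner, read 99.5 to 122 CPM. NDUFA4, now placed in complex IV, changed by 0.13 ± 0.07 and its stress-related paralogue NDUFA4L2 by 0.26 ± 0.17, and neither passed.

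Complex I has 7 nuclear core subunits, which carry its flavin and iron-sulfur clusters, and a large set of accessory subunits. Among the core genes NDUFS8 and NDUFS1 fell. NDUFS8, which holds iron-sulfur clusters near the quinone site, read 85.8, 72.8 and 80.3 CPM in Ctrl and 64.3, 66.7 and 67.2 in KO (-0.27 ± 0.07, edgeR adjusted p = 0.00386). It was the core member whose call was kept with KO replicates 1 and 2 added. Of 29 accessory genes 5 rose and 7 fell. NDUFA1, a small membrane subunit needed for assembly, went from 40.7, 46.7 and 50.5 to 58.8, 58.5 and 59.1, without overlap (0.36 ± 0.07, edgeR adjusted p = 0.000936). NDUFA2, NDUFB1, NDUFA5 and NDUFB6 also rose, by 0.19 to 0.30, and lost their calls with the replicates added. In the other direction, NDUFS6, a zinc-binding accessory subunit of the matrix arm, read 63.2, 53.8 and 62.7 in Ctrl and 45.8, 47.2 and 50.0 in KO (-0.33 ± 0.07, edgeR adjusted p = 0.00132). NDUFB10, of the membrane arm, changed by -0.29 ± 0.06, NDUFA12 by -0.28 ± 0.06, NDUFV3 by -0.27 ± 0.05 and NDUFA10 by -0.25 ± 0.05, and none of these had overlapping groups. NDUFB9 and NDUFA8 completed the 7. Among the assembly factors NDUFAF7, a methyltransferase, rose (0.27 ± 0.08, edgeR adjusted p = 0.0135), and the other 6 did not pass. The 2 tested rows kept apart, ATP5S and ATP5SL, did not pass either.

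**Figure D2:**
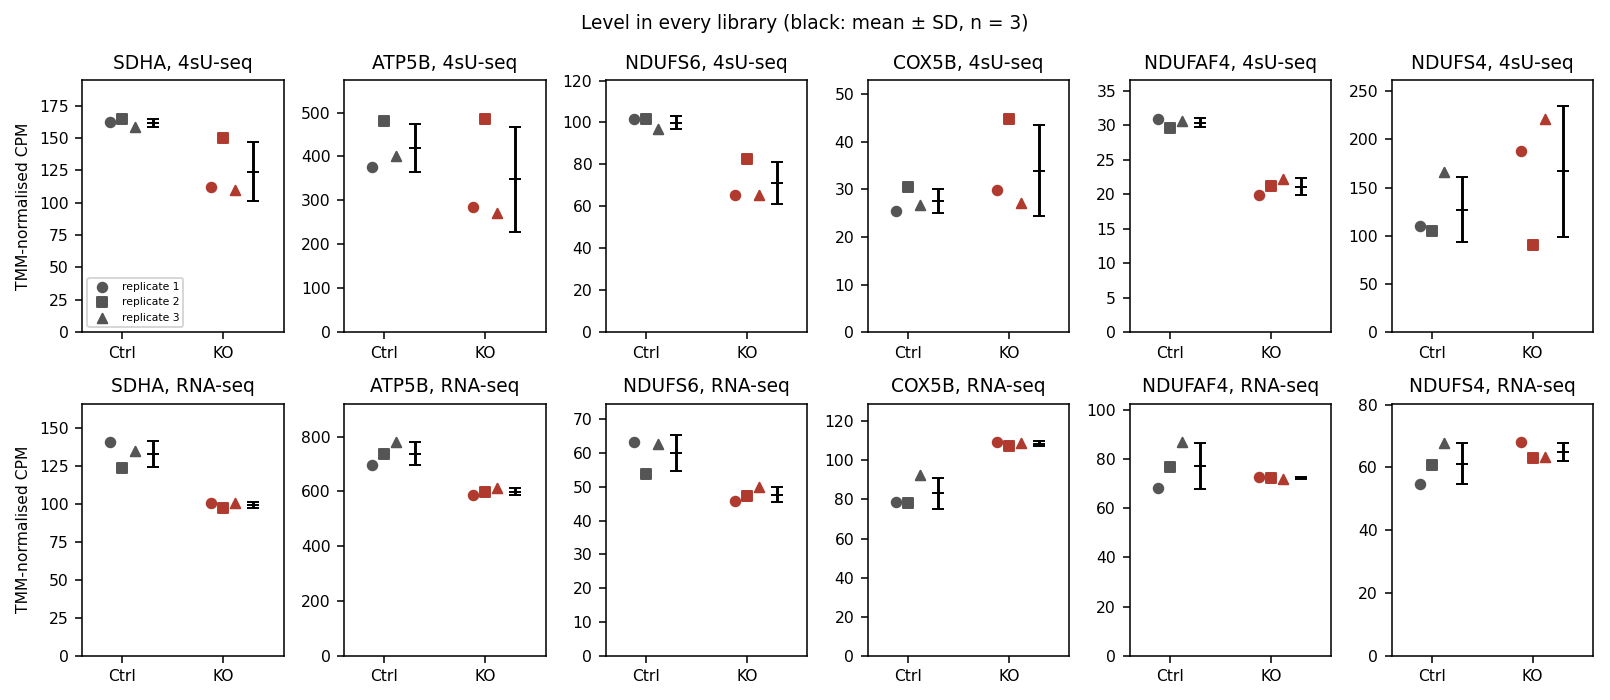
TMM-normalised CPM of 6 members in every library of 4sU-seq (top) and RNA-seq (bottom); grey is Ctrl, red is KO, marker shape is the replicate number, and black is the mean ± SD of 3. In RNA-seq SDHA and ATP5B are lower and COX5B is higher in every KO library, while in 4sU-seq KO replicate 2 (red square) lies away from the other KO libraries in all but NDUFAF4.

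The RNA-seq changes followed the length of the coding sequence. Of the 22 members with at most 300 coding bases, 9 rose and none fell in edgeR's test (8 and 3 with the trend below removed), and their median change was 0.23, against 0.11 for all 287 protein-coding genes of that size. Of the 3 members above 1500 bases, SDHA, ATP5A1 and ATP5B, all fell, with a median of -0.30 against -0.10 for 5901 genes. Calls among all genes of these lengths were not counted. Of 13653 protein-coding genes of any length tested, 3316 rose and 4835 fell. Spearman's rho between change and coding length, a description across genes measured in the same libraries, was -0.55 over 87 members and -0.11 over 13068 protein-coding genes. Fragment length, RNA integrity and library depth are shared by these points. With each library's trend of counts on coding length removed, an alternative added after the data were seen, 17 members rose and 20 fell, 16 and 16 of them among the first calls, and rho was -0.36 for the members and 0.00 for all genes. Of the 17 core genes 8 then fell and 1 rose, with a median of -0.12, and of the 64 other subunits 12 fell and 15 rose, with a median of 0.09.

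**Figure D3:**
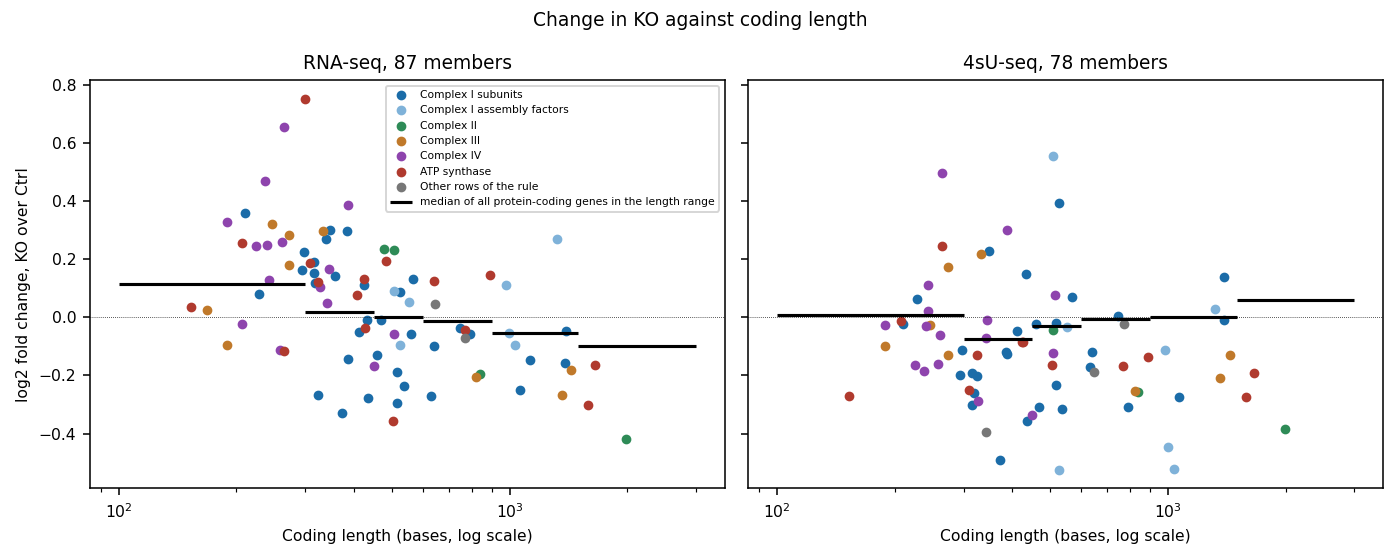
Log2 change of KO over Ctrl against coding length (GENCODE 29, log axis) for tested members in RNA-seq (left) and 4sU-seq (right), coloured by complex; black bars are medians of all protein-coding genes in each length range. In RNA-seq the members run from a median of 0.23 at up to 300 bases to -0.30 above 1500, a steeper course than the bars.

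Newly made RNA gave fewer calls. Of 82 members tested in 4sU-seq, 3 fell and none rose (3.66%, against 19.6% of all 21236 genes, 12.6% higher and 6.98% lower, and 20.1% of protein-coding genes). Groups did not overlap in 21 of the 82, or in 38.4% of all genes. Without adjustment, 9 were lower and 1 higher at p below 0.05, and the DESeq2 Wald test called 7 lower and none higher. Values below 0 were found for 64 of the 82, and the median was -0.12 against 0.05 for all genes; with ERCC scaling the members' median was 0.055 and no member was called. The second header above the ERCC rows does not say which of KO replicates 1 and 3 is which, so their order was taken from the first header. NDUFAF4, an early complex I assembly factor, read 31.0, 29.6 and 30.6 CPM in Ctrl and 19.8, 21.2 and 22.3 in KO. The KO libraries lay close together and far below Ctrl (-0.52 ± 0.11, edgeR adjusted p = 0.0200). NDUFS6 read 101, 102 and 96.7 in Ctrl and 65.6, 82.5 and 65.4 in KO (-0.49 ± 0.13, edgeR adjusted p = 0.0417), and NDUFA12 67.3, 67.0 and 70.1 and then 53.3, 51.9 and 54.6 (-0.36 ± 0.10, edgeR adjusted p = 0.0478). NDUFS6 and NDUFA12 were also lower in RNA-seq, whereas NDUFAF4 there read 68.2 to 87.0 in Ctrl and 72.1 to 72.7 in KO and did not pass. None of the 3 passed when any 1 of the Ctrl libraries was left out.

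What 4sU-seq showed depended on KO replicate 2. The median member lay 0.27 below its Ctrl mean (log2) in KO replicate 1, 0.27 below in replicate 3 and 0.09 above in replicate 2. In genes spanning under 10 kb the same library stood at 0.29 and in genes over 100 kb at -0.18, where KO replicates 1 and 3 stood at -0.17 and -0.27, and at 0.32 and 0.38. Ctrl replicate 2 leaned the same way, at 0.12 under 10 kb and -0.11 over 100 kb. Without KO replicate 2, 50 of 82 members fell and 2 rose (61% and 2.44%, against 28.4% and 25.4% of all genes), and the members' median was -0.35 against -0.01 for all genes. The first 3 calls were among the 50, and groups then did not overlap in 68 members, or in 72.2% of all genes. Without both libraries numbered 2, 39 fell and 2 rose (47.6% lower, against 24.8%). Without KO replicate 2, the medians of members and of all protein-coding genes were -0.37 and -0.34 for spans up to 10 kb. They were -0.32 and -0.27 from 10 to 20 kb and -0.37 and -0.16 from 20 to 50 kb. Longer genes had -0.14 and 0.05 from 50 to 100 kb and 0.03 and 0.36 above that. The part of KO replicate 2's difference with gene span in these counts was not tested member by member.

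**Figure D4:**
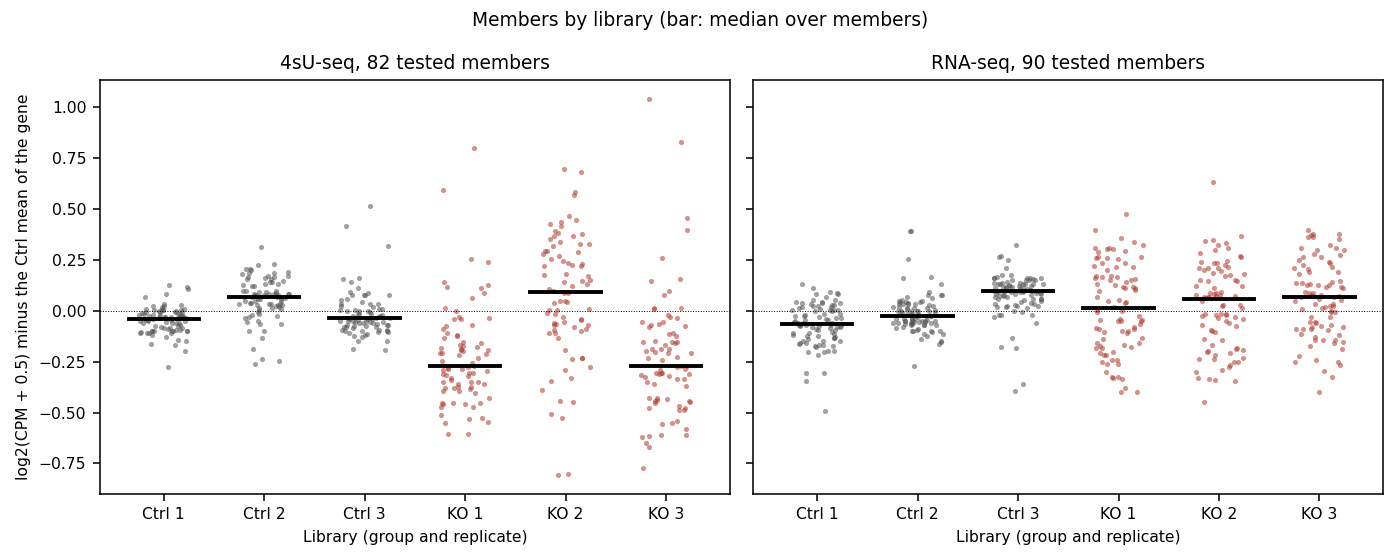
Each point is a tested member, plotted by library as log2(CPM + 0.5) minus the mean of that gene in Ctrl; bars are medians over members. In 4sU-seq KO replicates 1 and 3 have medians of -0.27 and KO replicate 2 of 0.09, and in RNA-seq the KO medians lie between 0.01 and 0.07 with points on both sides.

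Leaving KO replicate 2 out, every complex held members that fell in 4sU-seq. These were 21 of 32 complex I subunits, 5 of 7 assembly factors, 2 of 3 complex II genes and 5 of 8 in complex III. In complex IV 5 of 16 fell, in ATP synthase 10 of 13, and of the 3 rows kept apart 2. Without both libraries numbered 2, the counts in this order were 18, 4, 2, 3, 4, 7 and 1. With KO replicate 2 alone left out, 28.4% of all genes and 4993 of 14865 protein-coding genes fell, and the count in complex IV was near these shares. All 5 genes for the head and stalk of ATP synthase fell, ATP5D by 0.70 and ATP5B by 0.66 on the log2 scale. ATP5B read 376, 482 and 402 CPM in Ctrl and 285, 486 and 272 in KO, so that KO replicate 2 lay above every Ctrl library and the other KO libraries below them. SDHA read 162, 165 and 159 in Ctrl and 112, 150.2 and 109.9 in KO, without overlap even with that library (-0.38 ± 0.14, edgeR adjusted p = 0.115; -0.62 ± 0.08 and 0.000956 without it). The 2 that rose were NDUFAF2 and NDUFS4, an assembly factor and an accessory subunit with long genes (207909 and 122708 bases). Of the 6 tested members with genes over 100 kb 3 fell, among them the longest with coordinates, NDUFAF6 (220689 bases; -0.36 ± 0.13, edgeR adjusted p = 0.0426). NDUFS4 read 111, 105 and 166 in Ctrl and 188, 90.9 and 221 in KO, with Ctrl replicate 3 and KO replicate 2 away from their groups (0.39 ± 0.35 with all libraries; 0.62 ± 0.20, edgeR adjusted p = 0.0365 without KO replicate 2).

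Whether KO acted differently on the readout of each assay was tested with an interaction term in a fit of all 12 libraries. None of 78 members tested in both was called by edgeR (2.14% of 15863 genes were, 1.12% higher and 1.03% lower), with 10 lower in 4sU-seq at an unadjusted p below 0.05 and 8 called by DESeq2's Wald test. NDUFB2, an accessory subunit, came nearest, at -0.45 ± 0.12 (edgeR adjusted p = 0.0802), followed by ATP5L at -0.44 ± 0.13 (0.114). Without 4sU-seq KO replicate 2, 41 of the 78 passed the test with a lower log2 change in 4sU-seq than in RNA-seq (21.6% of all genes did). The median difference was then -0.37 for the members, -0.14 for all genes and -0.12 for protein-coding genes. Of the 41 members, 13 had risen in RNA-seq, 6 had fallen and 22 had not passed there. The calls of both assays were then placed side by side, for members only and not for all genes. Without 4sU-seq KO replicate 2, 61% of the members tested in 4sU-seq fell. In that setting, of 19 members that fell in RNA-seq 16 fell in 4sU-seq. Of 17 that rose in RNA-seq and were tested in 4sU-seq, 7 fell and none rose there by edgeR's test. COX5B is an example: it rose in RNA-seq, while in 4sU-seq it read 25.5, 30.4 and 26.8 CPM in Ctrl and 29.8, 44.8 and 27.1 in KO (0.30 ± 0.21 with all libraries, -0.02 ± 0.11 without KO replicate 2).

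Several members with clear RNA-seq levels had almost no 4sU-seq counts. ATP5H, ATP5G1, ATP5O, UQCR11 and NDUFB8 were listed at 0 in every 4sU-seq library, although their RNA-seq levels in Ctrl were 135, 73.5, 57.4, 44.5 and 33.0 CPM. Of the 13 members with at least 10 CPM in RNA-seq Ctrl and at least 80% of their exonic bases inside the span of another gene (GENCODE 29), 12 were under 1 CPM in 4sU-seq Ctrl, and the highest, COX6A1, read 1.26. None of the 68 members below that overlap was under 1 CPM, and they ran from 5.19 to 420.1. The same held across protein-coding genes, with 478 of 720 under 1 CPM at high overlap and 21 of 8386 otherwise. SDHD, whose exons lie 96.3% within such spans, read 85.6 CPM in RNA-seq Ctrl and 0.0316 in 4sU-seq Ctrl. How reads over several genes were counted in each table is not given in the sources used here, so the 4sU-seq changes of such members are uncertain. Those with enough counts stayed in the 4sU-seq counts above, such as COX6A1 and NDUFC2-KCTD14, which are among the members that fell without KO replicate 2.

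**Figure D5:**
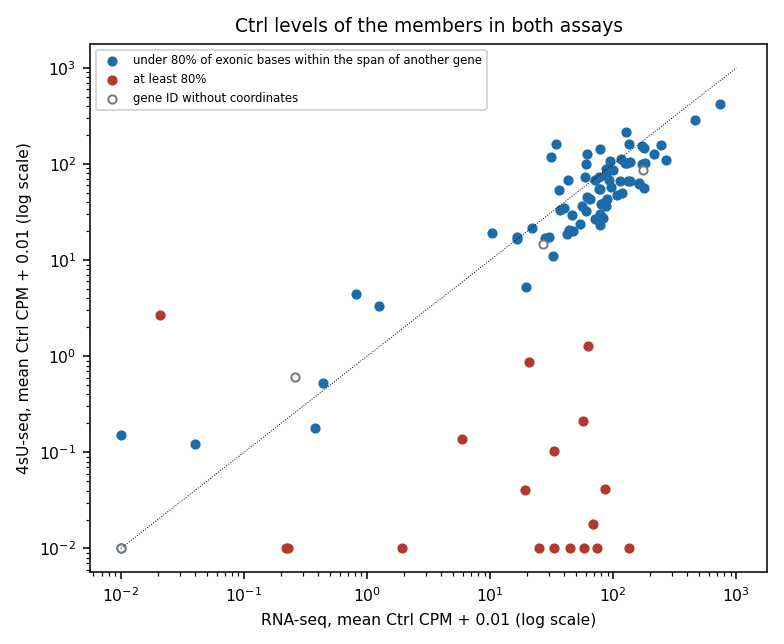
Mean Ctrl CPM of every member in RNA-seq and 4sU-seq (both plus 0.01, log axes; dotted line, equal values). Members with at least 80% of their exonic bases within the span of another gene (red) lie far below the others where RNA-seq is above 10 CPM, at up to 1.26 CPM in 4sU-seq; below that level the colours mix.

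Apart from those genes, respiratory members mostly had lower CPM in 4sU-seq than in RNA-seq. Whether each table counts exons alone or whole gene spans is not given in the sources used here. The ratio of the assays is therefore one of counts and need not be one of RNA abundance. For ATP5G1, at 0 in 4sU-seq, all exonic bases lie within the span of another gene but 0% lie in its exons. In Ctrl the ratio of the 4sU-seq to the RNA-seq level had a log2 median of -0.53 over 72 members with lower overlap, against 0.19 over 11565 protein-coding genes. It was lowest in complex III (-1.02), ATP synthase (-0.78), complex IV (-0.64) and complex I subunits (-0.58), while the complex I assembly factors (0.09) and complex II (0.28) lay near other genes. The ratio rose with gene span, which members and other genes share (Spearman's rho 0.57 and 0.52 across genes). In genes of up to 10 kb the medians were -1.01 for 32 members and -0.60 for 2022 protein-coding genes.

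Levels per length also differed within complexes. On the scale of RNA-seq CPM per kilobase of merged exons in Ctrl, ATP5B was the highest of all members at 301, 317 and 336. NDUFS5 led complex I at 230.2, 232 and 265, COX8A complex IV at 129, 135 and 139.9, and UQCRH complex III at 87.1, 97.3 and 109. SDHB led complex II at 53.0, 50.1 and 55.6, and SDHC was the lowest there at 5.17, 5.77 and 5.47. These 5 leading genes did not overlap one another. Within complex IV, however, COX8A overlapped COX6B1, at 119, 116 and 130. Merged exons include long rarely used ones, so these values are low for genes with many annotated exons. Per kilobase of a single transcript COX4I1, at a Ctrl mean of 345, and not COX8A, at 135, led complex IV.

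The subunits encoded in mitochondrial DNA were set beside the nuclear ones; these and the following lists were chosen with earlier results known. Of 13, 12 fell in RNA-seq (26.8% of all genes did), with a median of -0.43 (9 fell with library size alone, 12 with ERCC scaling). MT-CO1, the catalytic subunit of complex IV, read 4164, 4045 and 3797 CPM in Ctrl and 2332, 2289.8 and 2728 in KO, far apart (-0.71 ± 0.08, edgeR adjusted p = 5.6e-06). In 4sU-seq none of the 13 was called by edgeR with all libraries (median 0.03), and 4 fell without KO replicate 2 (28.4% of all genes did). Complex IV thus combined nuclear subunits of which 5 rose and 1 fell with a mitochondrially encoded core gene that fell.

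Assembly factors outside the symbol rule had 9 higher and 12 lower of 46 in RNA-seq, near the shares of all genes (21.5% and 26.8%), with a median of -0.04; with library size alone 22 rose and 8 fell (median 0.15), and with ERCC scaling 8 and 7. ECSIT, a complex I assembly factor, fell most, from 54.6, 46.2 and 51.9 CPM to 25.3, 25.8 and 25 (-1.003 ± 0.07, edgeR adjusted p = 6.43e-08). BCS1L, the chaperone that inserts the Rieske protein into complex III, fell in both assays, by 0.67 ± 0.06 in RNA-seq and 0.84 ± 0.20 in 4sU-seq on the log2 scale. Its 4sU-seq values were 23.0, 26.2 and 22.8 CPM in Ctrl and 11.3, 17.5 and 11.6 in KO, without overlap. Among 17 genes of cytochrome c, cytochrome c1 and ubiquinone synthesis, 1 rose and 8 fell in RNA-seq (median -0.14); with library size alone 4 rose and 3 fell (median 0.04), and with ERCC scaling 1 and 3. COQ10B, which binds ubiquinone, fell by 0.98 ± 0.08 in RNA-seq, and PDSS1, which helps make its side chain, fell by 0.70 ± 0.11 in 4sU-seq, both on the log2 scale.

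The citric acid cycle and pyruvate dehydrogenase list, 20 genes, had 2 higher and 9 lower in RNA-seq (median -0.07). Of 13653 protein-coding genes tested in RNA-seq, 3316 were higher and 4835 lower. With library size alone 8 rose and 5 fell (median 0.12), and with ERCC scaling 2 and 5 (median 0.02). OGDH, of the oxoglutarate dehydrogenase complex, read 123, 105 and 114 CPM in Ctrl and 71.7, 75.7 and 72.1 in KO (-0.64 ± 0.07, edgeR adjusted p = 4.45e-06), and IDH3B rose by 0.43 ± 0.06 on the log2 scale. DLAT, the acetyltransferase of pyruvate dehydrogenase, was the gene of this list that fell in 4sU-seq with all libraries (-0.57 ± 0.09, edgeR adjusted p = 0.00921). Among 19 tested regulators of nuclear respiratory genes and mitochondrial transcription, 2 rose and 10 fell in RNA-seq (median -0.20); with library size alone 6 rose and 5 fell, and with ERCC scaling 2 and 5. GABPB2, a partner of GABPA, read 39.9, 35.1 and 35.7 in Ctrl and 22.8, 21.98 and 23.1 in KO (-0.71 ± 0.06, edgeR adjusted p = 1.1e-06). HCFC1, a coactivator, fell in RNA-seq by 0.52 ± 0.06, and PPRC1, a coactivator of the PGC-1 family, by 0.38 ± 0.06 in RNA-seq and 0.62 ± 0.17 in 4sU-seq, on the log2 scale. GABPB2 and PPRC1 were the regulators that fell in 4sU-seq with all libraries. Without 4sU-seq KO replicate 2, 21 of 42 tested assembly factors outside the symbol rule fell and 2 rose. Of the cytochrome c and ubiquinone list 9 of 17 then fell and 2 rose, and of the citric acid cycle list 11 of 20 fell and 1 rose. Among the 19 regulators 9 fell and 2 rose in that setting. For comparison, 28.4% of all genes then fell and 25.4% rose, and of 14865 protein-coding genes 4993 fell and 3692 rose.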

How the data were processed

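RNA-seq and 4sU-seq gene counts of 12 libraries were used as deposited. To make these counts the authors used FastQC 0.11.2, HISAT2 2.1.0 on hg38, SAMtools 1.3 and featureCounts, per the submitters' processing notes; annotation and counting options are not given in these sources. Each assay was fitted alone over all genes: filterByExpr (minimum count 10), TMM without the 92 ERCC rows, edgeR 4.0.16 quasi-likelihood F test, two-sided, Benjamini-Hochberg adjustment, threshold 0.05; SE is the change over the square root of F. R 4.3.3, limma 3.58.1, DESeq2 1.42.0, Python 3.11.15 and matplotlib 3.10.9 were used, and the fits were tested on simulated data. GENCODE 29 gave spans and lengths (94.3% of IDs; 4 members had none), RefSeq the promoters.

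The members and lists were chosen with earlier results of these data known. Named genes were, per assay and complex, the called members of smallest p (at most 4), extremes, isoform pairs, SDHA to SDHD and up to 3 called genes per list. Other members, named to complete a role or the assay difference, were chosen after their values were seen. Replicate numbers were not used to pair libraries. Values of 1 member are not reported here and are left out of the plot of changes by gene; it stays in the counts.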

Additional observations from a re-analysis of the deposited data

How the results depend on the processing

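Among 49 named results, 707 of 825 recomputed values kept direction and call, 75 lost and 41 gained the call, and 2 reversed, both with library size alone in RNA-seq: COX4I1 (0.13) and COX8A (0.16). Library size alone and ERCC scaling shift all genes together. In RNA-seq the lower and higher members numbered 3 and 52 with library size alone (median 0.23), 3 and 22 with ERCC scaling (median 0.13), 11 and 10 with KO replicates 1 and 2 added, 3 and 1 with all 12 libraries in 1 fit, 11 and 32 with a mean of at least 50 counts, and none and 1 with a threshold of 0.5 on the log2 change. Leaving out 1 library gave 11 to 20 lower, 9 to 34 higher (34 without Ctrl replicate 3, 9 without KO replicate 1) and medians of 0.03 to 0.11. In 4sU-seq the lower members numbered 7 by the DESeq2 Wald test, 0 with ERCC scaling (median 0.055, against -0.12), 8 with all 12 libraries in 1 fit, 6 with the gene span trend removed, 1 with library size alone, 39 without both libraries numbered 2 and 1 at a threshold of 0.5. Higher members numbered 1 with all 12 libraries, the coding length trend removed, library size alone or a mean of at least 50 counts, and 2 without both libraries numbered 2. Leaving out 1 library gave 0 to 50 lower, 0 to 2 higher and medians of -0.35 to -0.045. For the assay difference, 8 members were called by the DESeq2 Wald test, 2 with the span trend removed, 1 with library size alone, 1 with a mean of at least 50 counts, 31 without both libraries numbered 2 and 0 to 41 on leaving out 1 library. The cause of these shifts was not tested.

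Replicate numbers were not used as a pairing: same-numbered libraries correlated at -0.16, 0.88 and 0.85 in 4sU-seq and -0.06, 0.21 and 0.31 in RNA-seq, and not every library correlated best with its own number. A replicate block gave 6 lower and 0 higher in 4sU-seq and 20 lower and 24 higher in RNA-seq.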
